A study of Homo sapiens with 2 samples.

Results

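Read-through genes are gene rows that join an upstream gene to the gene that follows it on the same strand, and 38 of them were described here beside their 76 parent genes. They were chosen from a deposited table of 30856 gene rows as the protein-coding rows whose name is made of the names of 2 other rows joined by a hyphen, with at least 50 counts over both libraries. A further 12 rows met the name rule below that minimum. BCL2L2-PABPN1 and TVP23C-CDRT4 lay just inside it with 60 and 61 summed counts, and ST20-MTHFS and CENPS-CORT lay just outside it with 47 and 42. Names of mitochondrial, HLA and H1 histone genes were left out by the rule, as were rows on an early stretch of chromosome 4.

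The cells were THP-1, a line from a human acute monocytic leukaemia with a KMT2A fusion. Resistant cells had been grown under Ara-C (cytarabine), a nucleoside analogue used against leukaemia, in steps that began at 5 nM and ended at 10 µM. They were set against untreated parental cells of the same line. Each group had 1 library of poly(A) RNA, so every difference below compares 2 libraries, has no replicate check and carries no p-value. The study's own question concerned regulators of the m6A mark on RNA, and the read-through genes are a different reading of the same table.

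The resistant library held 58285463 counts and the parental library 57434972, with counts above 0 in 24132 and 24445 rows. All 8 myeloid marker genes examined reached 1 FPKM in at least 1 library, with a summed level of 401 FPKM in resistant cells and 518 FPKM in parental cells. None of the 7 T cell, B cell, megakaryocyte, epithelial and fibroblast markers present in the table did so. Of the 8, 3 had a log2 ratio above 0 and 5 below. LYZ, the lysozyme gene, differed by more than the sum did, with 95.8 FPKM in resistant cells and 225 FPKM in parental cells. FCGR1A, an Fc receptor, lay the other way with 41.2 FPKM in resistant cells and 29.6 FPKM in parental cells, as did ANPEP, the aminopeptidase CD13, with 39.9 FPKM in resistant cells and 33.5 FPKM in parental cells. In bulk RNA, fewer cells of a type and less RNA per cell cannot be told apart.

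As background, RNA polymerase II normally stops downstream of a gene after the transcript has been cut at a polyadenylation signal. When that signal is passed, transcription can run into the next gene on the strand, and splicing can then remove the last exon of the first gene and the first exon of the second, which gives a fused messenger RNA. Some such transcripts encode a chimeric protein, and others contain an early stop codon and are degraded by nonsense-mediated decay. Because a read-through gene reuses exons of its parents, sequencing reads from within those shared exons are equally compatible with a parent.

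What is particular to a fused transcript is the junction where the exon chain of one parent meets that of the other. The following junctions show this for genes described below. Each holds the last 30 transcript bases of the upstream part in lower case and the first 30 bases of the downstream part in capitals, as the coding strand of the GENCODE 29 transcripts for the GRCh38 build gives them.
RPS10-NUDT3: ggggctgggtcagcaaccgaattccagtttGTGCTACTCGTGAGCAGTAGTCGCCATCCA
ISY1-RAB43: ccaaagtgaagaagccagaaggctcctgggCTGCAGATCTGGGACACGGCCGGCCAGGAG
LY75-CD302: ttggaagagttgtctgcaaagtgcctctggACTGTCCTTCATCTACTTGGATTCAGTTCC
BIVM-ERCC5: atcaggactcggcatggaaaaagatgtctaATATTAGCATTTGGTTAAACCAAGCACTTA
FPGT-TNNI3K: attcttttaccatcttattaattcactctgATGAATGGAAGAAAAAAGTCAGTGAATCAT
NME1-NME2: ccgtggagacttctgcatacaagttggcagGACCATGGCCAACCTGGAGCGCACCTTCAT
RBM14-RBM4: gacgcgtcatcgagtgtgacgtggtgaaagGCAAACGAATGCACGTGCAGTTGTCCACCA
RBM14-RBM4, other acceptor: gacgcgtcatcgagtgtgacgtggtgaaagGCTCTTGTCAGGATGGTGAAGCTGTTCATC

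The RPS10-NUDT3 junction runs on the minus strand of chromosome 6 from position 34418369 to position 34341972 and removes an intron of 76396 bases. The ISY1-RAB43 junction runs on the minus strand of chromosome 3 from 129130088 to 129095169, over 34918 bases. The LY75-CD302 junction runs on the minus strand of chromosome 2 from 159806973 to 159783469, over 23503 bases. Both RBM14-RBM4 junctions leave the same RBM14 exon at position 66617057 of chromosome 11 and enter different RBM4 exons. In the BIVM-ERCC5 and ISY1-RAB43 transcripts the donor is not an annotated exon end of the upstream parent, while in the others printed here both splice sites are used by the parents as well.

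Most of the read-through genes had little sequence of their own. Transcripts were matched by identifier and position to GENCODE 29, another release than that of the table. Matches were found for 36 of the genes, as 98 of the 113 transcripts the table lists. In the median gene 95.8% of the exonic bases lay in exons of a parent, with a range of 31.0% to 100%. In 21 genes at least 90% of the bases were shared, and 9 genes had no base of their own. A direct splice from an exon of the upstream to an exon of the downstream parent was annotated in 33 genes, as 48 distinct junctions, of which 36 used splice sites of both parents. A coding transcript in frame with both parents, over at least 30 bases each, was found in 18 genes. RPS10-NUDT3 had such a reading frame, with 456 of its 873 coding bases in frame with RPS10 and 417 with NUDT3. LY75-CD302 had 4990 of 5619 coding bases in frame with LY75 and 629 with CD302. ISY1-RAB43 had 851 of 993 coding bases in frame with ISY1 and 0 with RAB43.

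**Figure D1:**
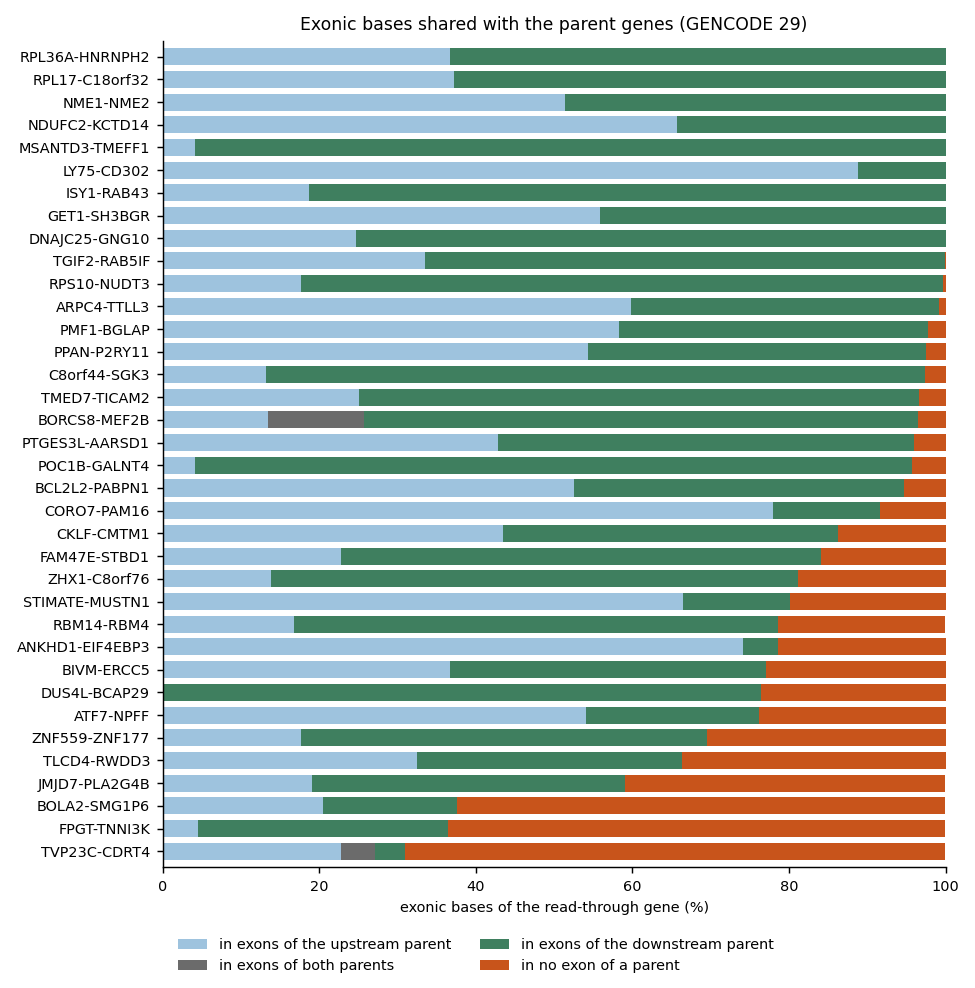
Exonic bases of each read-through gene with transcripts matched to GENCODE 29, in percent, split into bases in exons of the upstream parent, of the downstream parent, of both, and of neither. The share in neither parent is 0 for 9 genes and reaches 69.0% in TVP23C-CDRT4. For DUS4L-BCAP29 only 1 of 12 transcripts was matched.

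By position in the deposited table, 36 of the 38 rows overlapped both parents. The rows named PDCD6-AHRR and ARMCX5-GPRASP2 did not overlap their upstream parent. The start of the read-through row lay within 500 bases of the upstream parent's start in 25 genes, and within 50 bases in 14 of these. It lay within 500 bases of the downstream parent's start in 2 genes. The 33 parent pairs that do not overlap each other were separated by a median of 7259 bases, with a range of 141 to 108016. How the authors divided reads between overlapping rows was not given in the sources used here. A difference in a fused transcript and a difference in how shared reads were divided therefore cannot be told apart from these counts, which applies to each result below.

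A difference of at least 2-fold between resistant and parental cells was seen in 4 of the 38 read-through genes, or 10.5%, with 2 of them (5.26%) higher and 2 (5.26%) lower in the resistant library. The fold was taken on the FPKM + 1 scale, where FPKM is a level per transcript length and library size and the added 1 shrinks the ratio of low genes. Among all 12773 protein-coding rows with the same count minimum, 1.34% passed that rule, 0.407% higher and 0.932% lower. Protein-coding rows outside these loci that overlap another protein-coding row on the same strand passed at 3.32% of 573, with 1.40% higher and 1.92% lower. Rows with no such overlap passed at 1.22% of 12097, with 0.347% higher and 0.876% lower. The read-through genes were picked with earlier results of these data known, and their share is a description. PDCD6-AHRR and RPS10-NUDT3 were the higher ones, and C8orf44-SGK3 and ISY1-RAB43 the lower ones. None of the 67 parent genes with at least 50 counts passed. On counts relative to the library total, without the shrinkage, 12 read-through genes were at least 2-fold apart, 4 higher and 8 lower, or 31.6%, against 9.47% of all protein-coding rows, of which 2.80% were higher and 6.67% lower. Several of the 12 had few summed counts, such as BCL2L2-PABPN1 with 60, TLCD4-RWDD3 with 67 and GET1-SH3BGR with 76. The background was not matched for depth.

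On the FPKM + 1 scale the typical read-through gene also lay further apart between the libraries than the typical parent. The median absolute log2 ratio on that scale was 0.26 for the read-through genes, 0.17 for upstream parents, 0.13 for downstream parents and 0.14 for all protein-coding rows. Unlike the read-through genes, the parents had no count minimum here. Of the 76 parents, 9 had under 50 summed counts, and the added 1 shrinks their ratios most, which lowers the parent medians. On the counts scale the median was 0.55 for the read-through genes and 0.21 for all protein-coding rows. When the counts of a read-through gene and both parents were summed, the median absolute log2 ratio of these locus sums was 0.14. The locus sum was under 1.5-fold apart in 36 of 38 loci, or 94.7%, among them all 4 whose read-through gene passed the 2-fold rule. PDCD6-AHRR, at 1.43-fold, was the furthest apart of these 4. The sum of both parents without the read-through row was that close in 32 of 38 loci, or 84.2%. Its median absolute log2 ratio was 0.23. Of all protein-coding rows, each taken alone, 80.9% were that close on the counts scale. Those single rows are not matched to the sums for depth, so the 80.9% is only a loose comparison. The read-through gene and the sum of its parents lay on opposite sides of no difference in 21 loci. On the counts scale 17 of the 38 read-through genes and 26 of the 38 parent sums were above 0. With signs divided so, unrelated rows would often be opposite too, and the 21 is only a description.

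**Figure D2:**
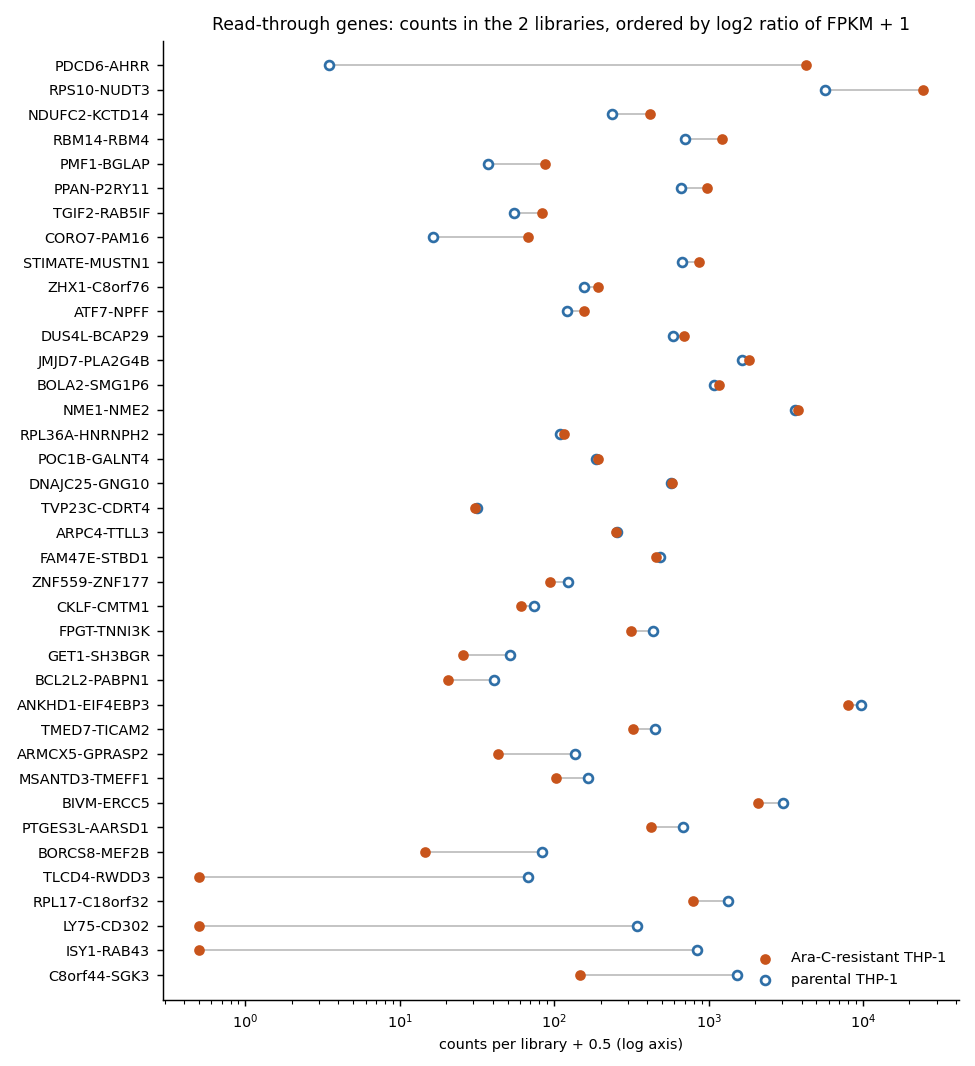
Counts of each of the 38 read-through genes in resistant cells (filled orange points) and parental cells (open blue points), with 0.5 added and a log axis, ordered by the log2 ratio of FPKM + 1. The long lines belong to PDCD6-AHRR at the top and to LY75-CD302, ISY1-RAB43, C8orf44-SGK3 and TLCD4-RWDD3 lower down, and most other pairs of points lie close together.

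RPS10-NUDT3 (ENSG00000270800, chromosome 6, 34284887 to 34426071, minus strand) joins RPS10, a protein of the small ribosomal subunit, to NUDT3, a Nudix hydrolase that acts on diphosphoinositol polyphosphates. It had 24562 counts in resistant cells and 5639 in parental cells, at 69.2 and 16.2 FPKM. Relative to the library totals it was 4.29-fold higher in resistant cells (95% counting interval 4.17 to 4.42). The intervals here and below cover counting error only, not the spread between cultures or the division of shared reads. Both parents were lower in resistant cells. RPS10 had 36989 counts in resistant and 50472 in parental cells, a fold of 0.722 (0.713 to 0.732). NUDT3 had 8425 counts in resistant and 11407 in parental cells, a fold of 0.728 (0.708 to 0.749). The sum of RPS10-NUDT3 and RPS10 was 1.08-fold (1.07 to 1.09), while that of RPS10-NUDT3 and NUDT3 was 1.91-fold (1.87 to 1.94). The sum over all 3 rows was 1.02-fold (1.01 to 1.03). The read-through row held 35.1% of the locus counts in resistant cells and 8.35% in parental cells. Of its exonic bases, 99.7% lie in exons of RPS10 or NUDT3 and 18 of 5231 bases lie in neither. RPS10 exons hold 17.7% of them and NUDT3 exons 81.9%.

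The row named PDCD6-AHRR (ENSG00000286169, chromosome 5, 322587 to 438291, plus strand) had 4308 counts in resistant and 3 in parental cells, at 11.3 and 0.01 FPKM. The fold of 1415 has a counting interval of 484 to 6864, since it rests on 3 parental counts. The name of this row goes against its position in the table. It starts 50966 bases from the start of PDCD6, which encodes a calcium-binding adaptor, and does not overlap it. GENCODE 29 lists the identifier of its only transcript under AHRR, the repressor of the aryl hydrocarbon receptor. There the transcript starts at 304176, before the table's row and inside the span of PDCD6, which the table ends at 314974. The releases thus differ over this transcript, and it was not among those matched by position. Another row, named AC010442 in the table and PDCD6-AHRR in the reference list of gene names, runs from 271670 to 438291 and spans both genes. Of its 3 transcripts, those found in GENCODE 29 are listed under AHRR too and start there at 304176 and 304184. That row had 3498 counts in resistant and 6825 in parental cells, a fold of 0.505 (0.485 to 0.526). AHRR itself had 559 counts in resistant and 1203 in parental cells, a fold of 0.458 (0.413 to 0.507). The 3 rows over AHRR together had 8365 counts in resistant and 8031 in parental cells, a fold of 1.03 (0.995 to 1.06). Across these 3 rows, counts thus stood in different rows in the libraries while their sum was within counting error of equal. The locus sum as defined for the other genes, with PDCD6 and without AC010442, was 1.43-fold (1.39 to 1.465). Of that sum the row named PDCD6-AHRR held 29.8% in resistant and 0.030% in parental cells. PDCD6 had 9603 counts in resistant and 8782 in parental cells, a fold of 1.08 (1.05 to 1.11).

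C8orf44-SGK3 (ENSG00000288602, chromosome 8, 66667596 to 66860472, plus strand) spans C8orf44, an open reading frame without an assigned function here, and SGK3, a serine/threonine kinase activated downstream of phosphoinositide 3-kinase. It had 147 counts in resistant and 1536 in parental cells and was 10.6-fold lower in resistant cells (8.95 to 12.65). SGK3 had 5159 counts in resistant and 2612 in parental cells, 1.95-fold higher (1.86 to 2.04). The sum of C8orf44-SGK3 and SGK3 was 1.26-fold (1.21 to 1.31), while that of C8orf44-SGK3 and C8orf44 was 0.197-fold (0.175 to 0.221). C8orf44 differed little, with 203 counts in resistant and 212 in parental cells. GENCODE 29 assigns both transcripts of the read-through row to SGK3, and all 1488 bases of the coding transcript examined are in frame with SGK3. In these transcripts 84.3% of the exonic bases lie in SGK3 exons and 13.2% in C8orf44 exons.

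ISY1-RAB43 (ENSG00000261796, chromosome 3, 129087575 to 129161036, minus strand) joins ISY1, a component of the spliceosome, to RAB43, a small GTPase of membrane traffic. It had 0 counts in resistant and 838 in parental cells. By the 95% counting interval its count, as reads were divided, was at least 230.0-fold lower in resistant cells. Against a floor of 3 counts in that library the fold was 283.5. Neither value bounds the level of the fused transcript, since the row has no base of its own. Both parents were higher in resistant cells. ISY1 had 3112 counts in resistant and 2558 in parental cells, 1.20-fold (1.14 to 1.26), and RAB43 had 580 in resistant and 425 in parental cells, 1.35-fold (1.19 to 1.53). The sum over the locus was 0.952-fold (0.910 to 0.997), and that of ISY1-RAB43 and ISY1 was 0.903-fold (0.860 to 0.948). The read-through row held 0 of 3692 locus counts in resistant cells, a share with an upper interval bound of 0.0999%. It held 21.9% of the locus counts in parental cells (20.6% to 23.3%). All its exonic bases lie in exons of ISY1 or RAB43, 18.7% in those of ISY1 and 81.3% in those of RAB43.

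LY75-CD302 and TLCD4-RWDD3 were likewise at 0 in resistant cells, though under the 2-fold rule because of their low FPKM, and were chosen for description after their values were seen. LY75-CD302 joins the endocytic receptor LY75 (DEC-205) of dendritic cells to CD302, a C-type lectin. It had 0 counts in resistant and 342 in parental cells. As reads were divided, that is at least 93.6-fold lower by the counting interval and 116-fold against the floor of 3 counts. LY75 had 4893 counts in resistant and 3584 in parental cells, 1.35-fold (1.29 to 1.41), and CD302 had 945 in resistant and 1236 in parental cells, 0.753-fold (0.692 to 0.821). TLCD4-RWDD3 had 0 counts in resistant and 67 in parental cells, at least 17.9-fold lower by the counting interval and 22.7-fold against that floor. Its upstream parent TLCD4 was lower too, with 107 counts in resistant and 207 in parental cells, a fold of 0.509 (0.400 to 0.646). Its downstream parent RWDD3, an enhancer of SUMO conjugation, had 874 counts in resistant and 773 in parental cells. All exonic bases of LY75-CD302 lie in exons of a parent, against 66.3% of those of TLCD4-RWDD3.

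In 3 further genes the read-through row held a share of the locus counts that was lower by at least 10 percentage points in resistant cells, below the 2-fold rule. BIVM-ERCC5 (chromosome 13) joins BIVM to ERCC5, the endonuclease XPG of nucleotide excision repair. It had 2090 counts in resistant and 3039 in parental cells, a fold of 0.678 (0.641 to 0.717). ERCC5 had 5422 counts in resistant and 2697 in parental cells, 1.98-fold (1.89 to 2.08). The locus sum was 1.25-fold (1.21 to 1.29), so ERCC5 alone lay further apart than the locus. The share of BIVM-ERCC5 was 25.9% in resistant cells (24.9% to 26.9%) and 47.8% in parental cells (46.6% to 49.1%). Of the exonic bases of BIVM-ERCC5, 23.0% lie in no exon of a parent.

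ANKHD1-EIF4EBP3 (chromosome 5) joins ANKHD1, an ankyrin repeat and KH domain protein, to EIF4EBP3, a repressor of translation that binds eIF4E. It had 8012 counts in resistant and 9660 in parental cells, a fold of 0.817 (0.793 to 0.842). ANKHD1 had 5948 counts in resistant and 3578 in parental cells, 1.64-fold (1.57 to 1.71). Their sum was 1.04-fold (1.02 to 1.06). EIF4EBP3 had 71 counts in resistant and 55 in parental cells, too few to set apart. The share of the read-through row was 57.1% in resistant and 72.7% in parental cells. Of its exonic bases, 21.4% lie in no exon of a parent.

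FPGT-TNNI3K (chromosome 1) joins FPGT, an enzyme of the fucose salvage pathway, to the cardiac kinase TNNI3K. It had 313 counts in resistant and 439 in parental cells, a fold of 0.703 (0.606 to 0.814). FPGT had 948 counts in resistant and 714 in parental cells, 1.31-fold (1.19 to 1.44). Their sum was 1.08-fold (0.994 to 1.17). TNNI3K had 2 counts in each library, so nearly all counts over this locus stood in FPGT and the read-through row. The share was 24.8% in resistant cells and 38.0% in parental cells. Of the exonic bases of FPGT-TNNI3K, 63.5% lie in no exon of a parent, 4.51% in FPGT exons and 32.0% in TNNI3K exons.

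**Figure D3:**
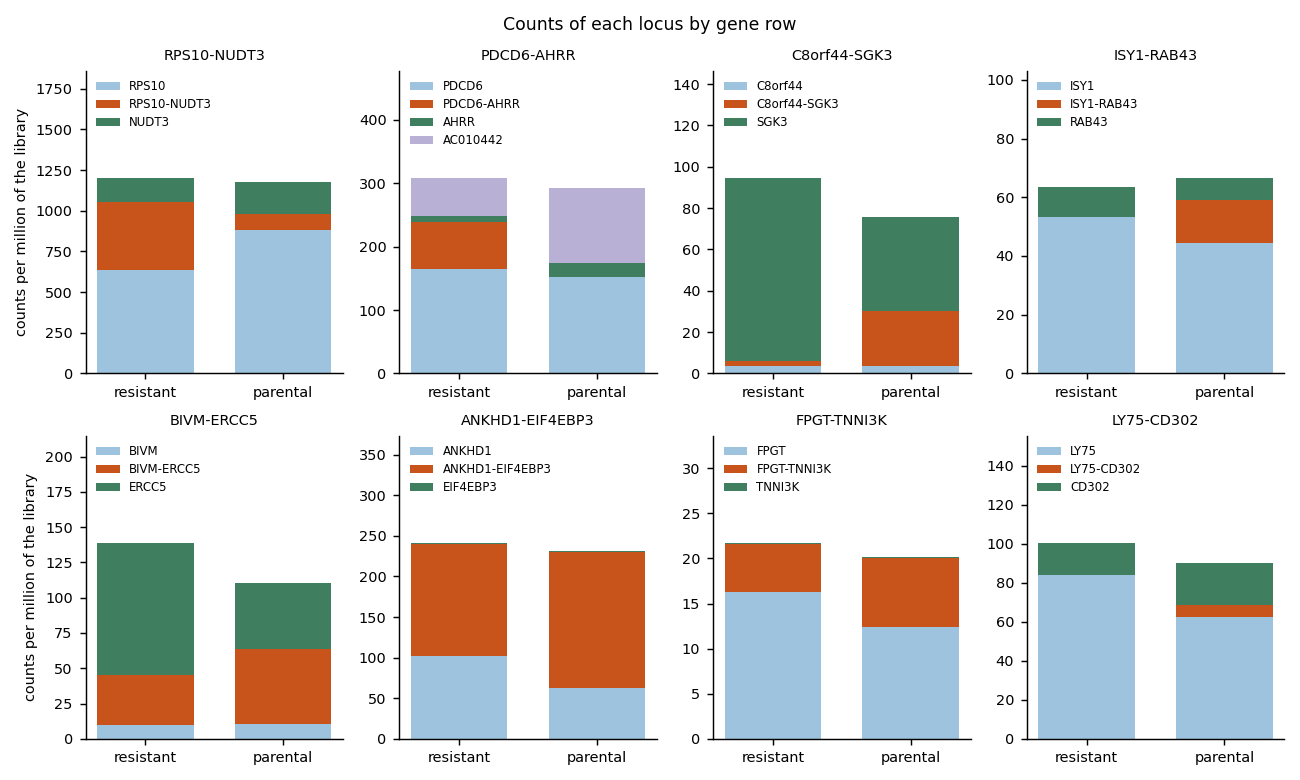
Library-scaled counts (CPM) in each row of 8 loci, stacked as upstream parent, read-through row and downstream parent, with AC010442 added for PDCD6-AHRR, in resistant cells (left bar) and parental cells (right bar). The read-through segment differs in size between the bars of each pair, while the heights of the bars are under 1.5-fold apart in these loci.

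Over all 38 loci the read-through row held a median of 9.20% of the counts in resistant and 10.1% in parental cells. The share differed by at least 10 points in 7 of the 38 loci, higher in resistant cells in 2 and lower in 5. No such share was computed for other overlapping rows, so this count has no background beside it. In 6 of these 7, the read-through row and the sum of its parents lay on opposite sides of no difference. The 7 were picked by a changed share of these same counts, which favours opposite sides, so this adds nothing to the shift itself. Per length, the read-through row had a higher FPKM than both parents in 3 loci in resistant and 5 in parental cells, and a lower FPKM than both in 16 loci in each. The loci in which it was above both in resistant cells were ANKHD1-EIF4EBP3, FAM47E-STBD1 and JMJD7-PLA2G4B. In parental cells BIVM-ERCC5 and C8orf44-SGK3 were above both parents too.

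**Figure D4:**
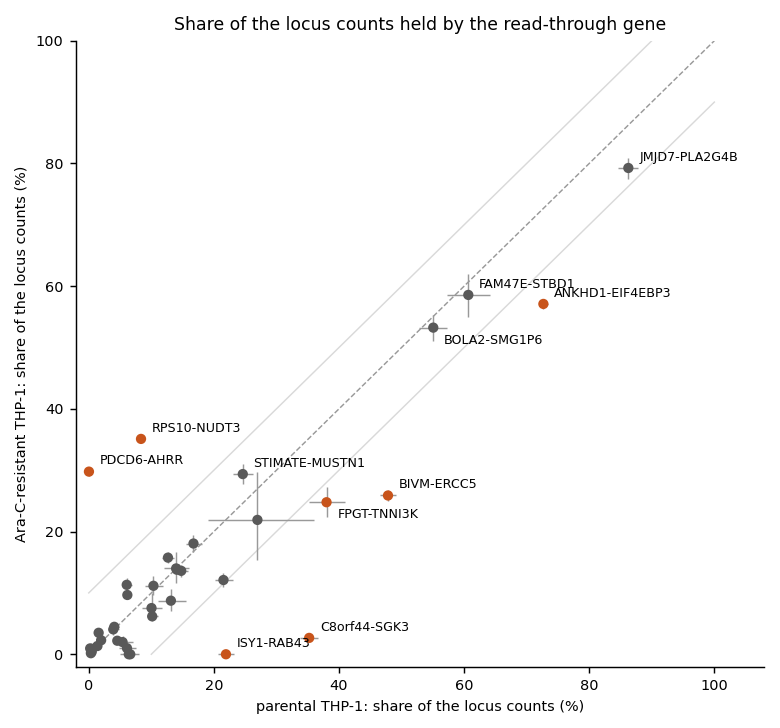
Share of the locus counts held by the read-through row, in percent, in resistant cells (vertical axis) against parental cells (horizontal axis), with 95% intervals for counting error as bars. Grey lines mark a difference of 10 percentage points, and the 7 genes outside them are in orange, 2 above and 5 below.

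Several abundant read-through rows differed little. NME1-NME2 joins a pair of nucleoside diphosphate kinase genes and had 3808 counts in resistant and 3635 in parental cells, a fold of 1.03 (0.986 to 1.08). NME1 had 7964 counts in resistant and 7787 in parental cells, and NME2 had 15860 in resistant and 14389 in parental cells. The share of the read-through row was 13.8% in resistant and 14.1% in parental cells. JMJD7-PLA2G4B, which joins a lysyl hydroxylase gene to a cytosolic phospholipase A2 gene, had 1819 counts in resistant and 1643 in parental cells, a fold of 1.09 (1.02 to 1.17). It held 79.3% of the locus counts in resistant and 86.3% in parental cells, the highest shares among the 38. JMJD7 itself had 252 counts in resistant and 126 in parental cells, and PLA2G4B had 224 in resistant and 136 in parental cells. Of the exonic bases of JMJD7-PLA2G4B, 41.0% lie in no exon of a parent.

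FAM47E-STBD1, whose downstream parent encodes a glycogen-binding protein, had 458 counts in resistant and 486 in parental cells, a fold of 0.929 (0.816 to 1.06). FAM47E was at 0 in both libraries and STBD1 had 324 counts in resistant and 315 in parental cells. The locus therefore read as the fused row and its downstream parent alone. BOLA2-SMG1P6 joins an iron-sulfur cluster factor to a pseudogene of the kinase SMG1 and had 1175 counts in resistant and 1080 in parental cells, a fold of 1.07 (0.986 to 1.17). BOLA2 had 868 counts in resistant and 644 in parental cells, and SMG1P6 had 164 in resistant and 237 in parental cells. The share of the read-through row was 53.2% in resistant and 55.1% in parental cells. A further overlapping row on the same strand, AC133555, had 647 counts in resistant and 262 in parental cells. With AC133555 included, the share was 41.2% in resistant and 48.6% in parental cells. Near-identical copies of both parents exist in the genome, so these counts are uncertain. Of the exonic bases of BOLA2-SMG1P6, 62.4% lie in no exon of a parent. STIMATE-MUSTN1, named for a calcium entry regulator of the endoplasmic reticulum and a musculoskeletal gene, had 860 counts in resistant and 669 in parental cells, 1.27-fold higher (1.14 to 1.40). STIMATE had 2067 counts in resistant and 2047 in parental cells, and MUSTN1 had 1 in each. TVP23C-CDRT4 had 30 counts in resistant and 31 in parental cells, a fold of 0.954 with the wide interval of 0.558 to 1.63. TVP23C had 107 counts in resistant and 79 in parental cells, and CDRT4 had 0 in resistant and 5 in parental cells.

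RBM14-RBM4 and RPL17-C18orf32 lay between these and the shifted genes. RBM14-RBM4 joins RBM14, a nuclear coactivator found in paraspeckles, to RBM4, a splicing regulator. It had 1215 counts in resistant and 699 in parental cells, 1.71-fold higher (1.56 to 1.88). RBM14 had 6719 counts in resistant and 6332 in parental cells, 1.05-fold (1.01 to 1.08), and RBM4 had 4639 in resistant and 4303 in parental cells, 1.06-fold (1.02 to 1.11). The read-through row differed more than either parent, and its share was 9.66% in resistant and 6.17% in parental cells. RPL17-C18orf32 joins a protein of the large ribosomal subunit to a small open reading frame. It had 787 counts in resistant and 1343 in parental cells, 1.73-fold lower in resistant cells (1.59 to 1.89). RPL17 had 34216 counts in resistant and 27863 in parental cells, 1.21-fold (1.19 to 1.23). C18orf32 had 663 counts in resistant and 253 in parental cells, 2.58-fold higher (2.23 to 3.00), though under the 2-fold rule on the FPKM + 1 scale. All exonic bases of the read-through gene are shared with these parents.

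The counting interval of the fold lay wholly to one side of 1 in 27 of the 38 read-through genes, or 71.1%, above it in 11 and below it in 16. The same held for 72.1% of all protein-coding rows, 31.6% above and 40.5% below, so the read-through genes were near the background by this measure. Among the 21 genes not yet described, the interval lay above 1 in 6. NDUFC2-KCTD14, which starts at a gene for a subunit of respiratory complex I, had 417 counts in resistant and 236 in parental cells, 1.74-fold higher (1.48 to 2.05). PPAN-P2RY11 joins a ribosome assembly factor to a purinergic receptor and had 975 counts in resistant and 663 in parental cells, 1.45-fold higher (1.31 to 1.60). PMF1-BGLAP joins a kinetochore component to osteocalcin and had 87 counts in resistant and 37 in parental cells, 2.32-fold higher (1.56 to 3.50). The upstream parents of these rows, NDUFC2, PPAN and PMF1, were at 0.885-fold, 1.12-fold (1.08 to 1.17) and 1.03-fold. Of the downstream parents, P2RY11 was at 1.11-fold. KCTD14 had 0 counts in resistant and 12 in parental cells, and BGLAP had 6 in resistant and 15 in parental cells. CORO7-PAM16, from a coronin and a mitochondrial import factor, had 67 counts in resistant and 16 in parental cells, 4.13-fold higher (2.37 to 7.63). TGIF2-RAB5IF had 83 counts in resistant and 54 in parental cells, and DUS4L-BCAP29 had 695 in resistant and 586 in parental cells.

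For 8 genes the counting interval lay below 1. PTGES3L-AARSD1 had 422 counts in resistant and 683 in parental cells, 1.64-fold lower in resistant cells (1.45 to 1.86). Both of its parents were higher in resistant cells, PTGES3L at 1.28-fold and AARSD1 at 1.18-fold. BORCS8-MEF2B joins a lysosome-positioning factor to a MADS-box transcription factor and had 14 counts in resistant and 83 in parental cells, 6.02-fold lower (3.39 to 11.5). TMED7-TICAM2 joins a cargo receptor of the secretory pathway to the adaptor TRAM of Toll-like receptor signalling and had 324 counts in resistant and 446 in parental cells, 1.40-fold lower (1.21 to 1.62). Its parents were higher in resistant cells. TMED7 had 4807 counts in resistant and 3906 in parental cells, 1.21-fold (1.16 to 1.26), and TICAM2 had 112 in resistant and 45 in parental cells, 2.45-fold (1.72 to 3.55). GET1-SH3BGR had 25 counts in resistant and 51 in parental cells, and BCL2L2-PABPN1 had 20 in resistant and 40 in parental cells. ZNF559-ZNF177, from 2 zinc finger genes, had 93 counts in resistant and 122 in parental cells. All 6 loci had sums between 0.974-fold and 1.32-fold.

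ARMCX5-GPRASP2 and MSANTD3-TMEFF1 made up the rest of that group and were the exceptions to the steady locus sums. ARMCX5-GPRASP2 had 43 counts in resistant and 136 in parental cells, 3.21-fold lower (2.26 to 4.63). Its parent ARMCX5 had 370 counts in resistant and 870 in parental cells, and GPRASP2, a sorting protein for G protein-coupled receptors, had 158 in resistant and 350 in parental cells. The locus sum was at 0.415-fold (0.376 to 0.458), the only one at least 2-fold apart. This protein-coding row does not overlap ARMCX5, while a second row of the same name, of type lncRNA, had 56 counts in resistant and 178 in parental cells, a fold of 0.310 (0.225 to 0.421). MSANTD3-TMEFF1 had 102 counts in resistant and 166 in parental cells, 1.65-fold lower (1.28 to 2.14). MSANTD3 was lower by as much, with 627 counts in resistant and 1022 in parental cells, and TMEFF1 was at 0 in both. Its share of the locus was 14.0% in each library.

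For the other 7 genes the counting interval included 1, so no difference was detectable at this depth. DNAJC25-GNG10 had 576 counts in resistant and 571 in parental cells, with a fold of 0.994 (0.884 to 1.12). ARPC4-TTLL3, from a subunit of the actin-nucleating Arp2/3 complex and a tubulin glycylase, had 251 counts in resistant and 254 in parental cells. POC1B-GALNT4 had 192 counts in resistant and 186 in parental cells. Counts were 155 in resistant and 120 in parental cells for ATF7-NPFF, and 192 in resistant and 155 in parental cells for ZHX1-C8orf76. They were 115 in resistant and 109 in parental cells for RPL36A-HNRNPH2, and 60 in resistant and 73 in parental cells for CKLF-CMTM1. Their folds ranged from 0.810 to 1.27.

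**Figure D5:**
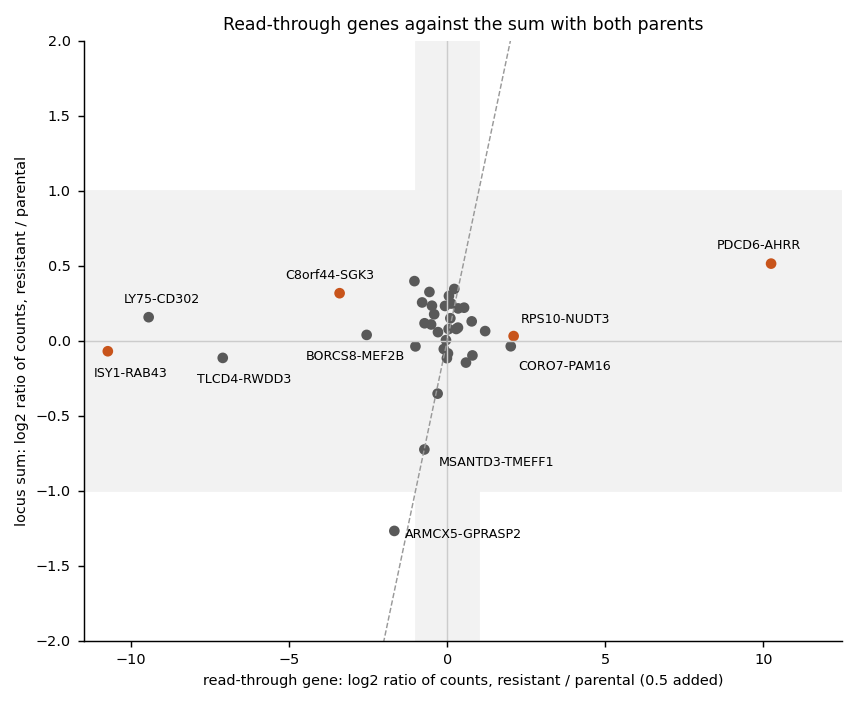
Log2 ratio of counts, resistant over parental, of each locus sum (vertical axis) against that of its read-through gene with 0.5 added (horizontal axis). Orange points are the 4 genes at least 2-fold apart on the FPKM + 1 scale, grey bands mark log2 ratios from -1 to 1, and the dashed line marks equal ratios. The points spread far along the horizontal axis and, apart from ARMCX5-GPRASP2 at -1.27, stay between -1 and 1 on the vertical axis.

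Genes of the machinery that ends transcripts were examined as a list of 30 factors of cleavage, polyadenylation and termination. None passed the 2-fold rule in either direction, where 1.34% of all protein-coding rows did, and 29 were under 1.5-fold apart on the FPKM + 1 scale, near the 94.25% of all protein-coding rows. Their median log2 ratio was -0.04, beside -0.03 for all protein-coding rows, with 11 above 0 and 19 below. FIP1L1, a subunit of the cleavage and polyadenylation specificity factor, differed most, with 6.80 FPKM in resistant cells and 11.2 FPKM in parental cells, a log2 ratio of -0.65. It lies at position 53377641 of chromosome 4, in the stretch that the choice of read-through genes left out. CSTF2T, a paralogue of the cleavage stimulation factor that binds downstream of the cut, was at a log2 ratio of -0.19, and SCAF4, which limits the use of early polyadenylation sites, at -0.16.

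The list of 16 factors of nonsense-mediated decay, the pathway that degrades transcripts with an early stop codon, also had none past the 2-fold rule, and all were under 1.5-fold apart, as 94.25% of all protein-coding rows were. The median log2 ratio was 0.05, with 12 above 0 and 4 below. RBM8A, a core subunit of the exon junction complex, had 44.3 FPKM in resistant cells and 34.4 FPKM in parental cells, a log2 ratio of 0.36. EIF4A3, the helicase of that complex, had 19.0 FPKM in resistant cells and 23.5 FPKM in parental cells, a log2 ratio of -0.29. UPF3A, which links the complex to decay, was at a log2 ratio of 0.21. Whether the levels of these factors bear on the read-through rows was not tested.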

How the data were processed

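Poly(A) RNA of 1 Ara-C-resistant and 1 parental THP-1 library was compared. Per the labels' protocols, libraries were stranded (dUTP) and sequenced as read pairs. The table deposited by the authors gives, for each gene row and library, an FPKM value, normalised to length and depth, and a raw count. The submitters' processing notes name the build GRCh38 and, without a role, edgeR, DESeq2, StringTie 1.3.4d, HISAT2 2.0.4 and cutadapt 1.9. For reads shared by overlapping genes, the handling was not given in the sources used here, nor were the annotation release and strand setting. The count column of the resistant library ends in a suffix with no explanation in the labels. The members, gene lists and rules were chosen with earlier results of these data known.

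Ratios were log2((FPKM resistant + 1)/(FPKM parental + 1)), and rows passed at 1 or more (higher) or -1 or less (lower). Counts were compared relative to library totals, with 0.5 added for log ratios and 95% Clopper-Pearson intervals for folds and shares. A locus sum is the read-through row plus both parents. With 1 library per group no test was possible. Transcripts of a row were matched by identifier to GENCODE 29, with ends within 1000 bases of the row. Full values were given for members past the 2-fold rule, those whose share differed by 10 points, the 10 with most counts and the 10 with the highest mean share, and for 3 genes of each context list. Other members were chosen for description after their values were seen. Steps were tested on simulated counts. Alternatives covered the pseudocount, counts, filters, scaling, size rules, overlap with the parents and the definition of the share. Tools were matplotlib 3.10.9, scipy 1.17.1, pandas 2.3.3 and numpy 2.4.6 under Python 3.11.15.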

Additional observations from a re-analysis of the deposited data

How the results depend on the processing

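The 2 higher and 2 lower read-through genes were the same in number when rows needed 1 FPKM in a library or more summed counts, when ratios were centred, and under a 3-fold rule. With a pseudocount of 0.1 FPKM there were 4 higher and 6 lower and the median absolute log2 ratio was 0.53, while 6.22% of all protein-coding rows passed. With a pseudocount of 5 FPKM there were 2 higher and 1 lower and the median was 0.085, with 0.227% of all rows passing. Counts relative to the library total gave 4 higher, 8 lower and a median of 0.55. A 1.5-fold rule gave 4 higher and 5 lower. Among rows that overlap both parents, 1 was higher and 2 lower. Without the rows named PDCD6-AHRR and ARMCX5-GPRASP2 and members at 0 in a library, an alternative chosen after seeing the data, 1 was higher and 1 lower. The number with a shifted share was 7, against 11 by share of FPKM, 14 at 5 points and 5 at 20 points. It was 6 among rows that overlap both parents and 5 in the alternative chosen after seeing the data. The median of the locus sums was between 0.12 and 0.16 in every alternative run. Depth limits rows under about 100 counts, whose intervals are wide. No paired analysis was possible because each group has 1 library.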

Other observations

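Among protein-coding rows with at least 300 summed counts, 7 of 11000 were at 0 in 1 library and above 0 in the other. ISY1-RAB43 and LY75-CD302 were 2 of these 7. GSDMC and AP002748 had 314 and 521 counts in resistant cells and 0 in parental cells. CACNA2D1, AC139530 and AC131160 had 0 counts in resistant cells and 475, 543 and 484 in parental cells. These were named after their values were seen.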
